A study of Rattus norvegicus with 2 samples.

Results

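Integrins are the cell surface receptors through which cells hold on to the matrix around them, and laminins are the trimeric proteins that build the basement membrane sheet to which many of them bind. The genes described here are those of integrin alpha and beta subunits, of laminin alpha, beta and gamma chains, and of the nidogens and agrin, which tie laminin to other matrix and to the cell surface. They were taken by a rule on gene symbols, and they were chosen with earlier results of these data known. Of the 15615 genes measured, 35 carried a symbol under the rule in the platform's annotation. They were 16 alpha and 8 beta integrin subunits, 8 laminin chains, and Nid1, Nid2 and Agrn. Some other symbols fall under the rule, such as Itgax, Lama4, Lamb1 and Hspg2, but no probe bore them, and they were not analysed here.

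The study set uncultured rat heart against cultured adult cells. On each of 2 Agilent arrays, a rat heart sample labelled with Cy3 was hybridised with mix1, a pool of bone marrow cells (BMC) and primary ear fibroblasts (PEF) grown in serum-containing medium and labelled with Cy5. The labels give no strain, age, sex or treatment beyond "untreated" for the heart samples and do not say whether hearts 1 and 2 came from different animals, and the p-values therefore reflect only how far hearts 1 and 2 spread, a spread that may be technical. Mix1 counts as 1 control sample whose own spread does not enter the test, and there was no dye swap, so that a dye effect of a probe stays in its ratio. Culture and cell origin changed together and cannot be told apart. In a bulk sample, fewer cells of a type and less RNA per cell cannot be told apart either. Because mix1 holds 2 cell sources in an unstated proportion, a low ratio does not show which of them carried the transcript.

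Values are given as the log2 of the heart signal over that of mix1, so that 1 is 2-fold higher and -1 is 2-fold lower in heart. The labels state neither the base nor the direction of the deposited ratio. Positive was taken as higher in heart because all 23 measured cardiomyocyte marker genes were positive on both arrays (median 5.78), so the direction is likely rather than stated. All 12 endothelial markers were also higher (median 3.42) and all 12 fibroblast markers lower (median -4.05). Of 9 measured pan-leukocyte markers, 2 were higher, 2 lower and 5 without a call (median 0.06). Array 2 stood apart in genes of lung and airway epithelium: the median of 14 such markers was 0.18 on array 1 and 2.45 on array 2, and the surfactant gene Sftpc was at 0.84 and 6.68. Over all genes the array medians were -0.07 and -0.15, and 2.16% of genes differed by at least 2-fold between the arrays.

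An integrin is a pair of 1 alpha and 1 beta subunit, and the pairing fixes what it binds. Subunits that pair with beta 1 include receptors for laminin (Itga3, Itga6, Itga7), collagen (Itga1, Itga2, Itga10, Itga11) and fibronectin-type ligands (Itga5, Itga8, Itgav), whereas the beta 2 and beta 7 integrins belong to white blood cells. In striated muscle, Itga7 with Itgb1 is known as the main laminin-binding integrin, and the laminin of the mature muscle basement membrane carries the alpha 2 chain encoded by Lama2.

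Promoter sequence is shown for 4 members that stand for the contrasts described next: Itgb7 and Itgae, partners that were both higher in heart, Itgb1, the shared beta subunit that was lower, and Lama2, the muscle laminin chain that was higher. Each line gives the 250 bases before the annotated start, 5′ to 3′ on the gene's strand, from RefSeq's GRCr8 annotation. Capitals mark matches on either strand to the GC box GGGCGG and to the E-box CANNTG.
Itgb7: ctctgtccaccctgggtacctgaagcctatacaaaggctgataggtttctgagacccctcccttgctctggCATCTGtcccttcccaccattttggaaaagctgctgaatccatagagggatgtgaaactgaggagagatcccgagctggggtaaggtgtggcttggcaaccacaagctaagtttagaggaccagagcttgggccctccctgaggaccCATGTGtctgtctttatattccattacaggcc
Itgae: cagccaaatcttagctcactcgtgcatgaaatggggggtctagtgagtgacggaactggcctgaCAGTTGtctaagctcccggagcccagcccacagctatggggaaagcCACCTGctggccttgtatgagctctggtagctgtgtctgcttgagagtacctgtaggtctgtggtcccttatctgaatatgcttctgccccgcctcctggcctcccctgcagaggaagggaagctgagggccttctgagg
Itgb1: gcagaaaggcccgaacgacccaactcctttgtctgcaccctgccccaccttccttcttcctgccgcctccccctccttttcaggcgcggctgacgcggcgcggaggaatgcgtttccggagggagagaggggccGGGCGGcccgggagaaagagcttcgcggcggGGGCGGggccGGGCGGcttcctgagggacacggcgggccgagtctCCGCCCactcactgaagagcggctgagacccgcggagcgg
Lama2: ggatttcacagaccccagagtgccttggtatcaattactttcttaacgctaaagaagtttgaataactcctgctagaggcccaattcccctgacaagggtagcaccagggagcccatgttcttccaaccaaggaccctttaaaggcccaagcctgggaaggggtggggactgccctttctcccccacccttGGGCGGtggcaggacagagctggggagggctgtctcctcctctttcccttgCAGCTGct
These windows lie at chr7:135239072-135239321 on the minus strand for Itgb7, and on the plus strand at chr10:58203118-58203367 for Itgae, chr19:73602027-73602276 for Itgb1 and chr1:19491896-19492145 for Lama2. The Itgb1 window held 4 GC box matches and 0 E-box matches, those of Itgb7 and Itgae each held 0 GC box and 2 E-box matches, and that of Lama2 held 1 of each. A promoter was matched by symbol for 26 of the 35 genes. GGGCGG stood in 14 of these 26 windows (53.8%) and in 30.5% of all 33469 windows of the same length, and CANNTG stood in 15 of 26 (57.7%) and in 65.5% of all. The windows of these genes had a median GC content of 59.8%, against 51.2% over all. The 33469 windows were not limited to genes measured on the array, so these shares and medians come from unlike sets. A match describes the letters of the window and does not show binding of a factor.

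As a family, integrin and laminin genes were divided about as the array as a whole was. In limma's moderated test of the ratio against 0 (Benjamini-Hochberg over all genes, adjusted p under 0.05), 12 of the 35 were higher in heart (34.3%), 15 were lower (42.9%) and 8 had no call, where 31.4% of all genes were called higher and 41.5% lower, 72.9% in all. With the further condition of a 2-fold difference, 7 were higher and 10 lower, against a background of 16.9% and 19.5%. Their median was -0.10, against -0.09 over all genes. These shares lie near the background and are no result about the family; the description that follows is of which isoform stood on which side. The members ranged from 4.12 for Itga7 to -3.68 for Itga11.

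**Figure D1:**
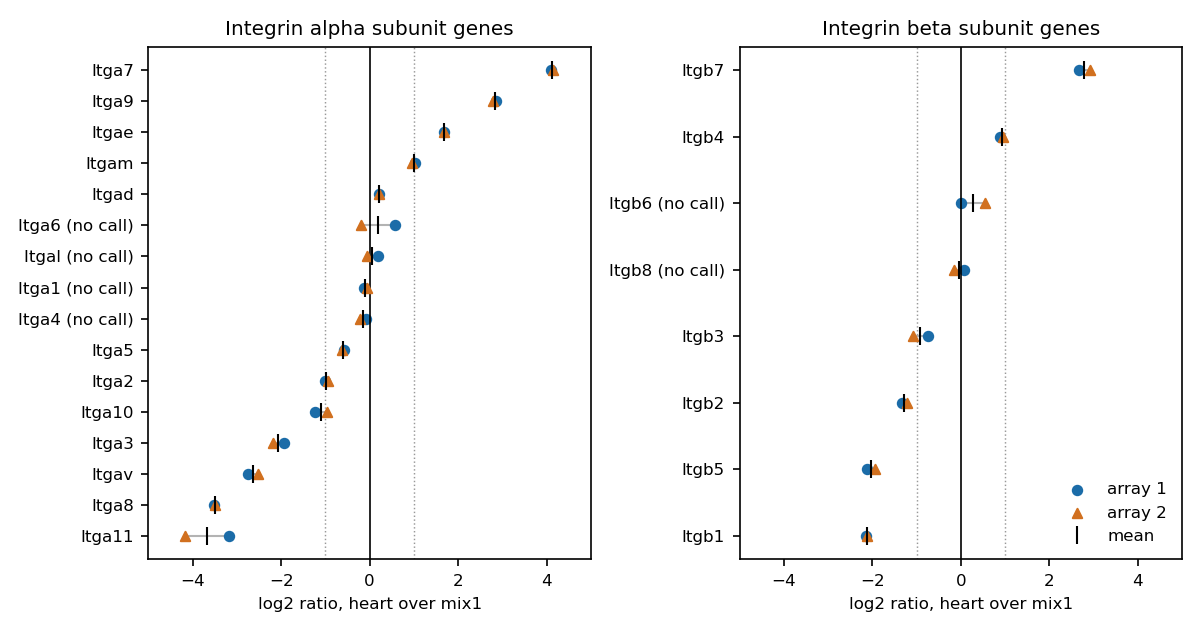
Log2 ratio of heart over mix1 (x axis) for the 16 integrin alpha genes (left) and the 8 beta genes (right), ordered by mean. Circles are array 1, triangles array 2 and vertical ticks their mean; dotted lines mark 2-fold, and "no call" marks an adjusted p of 0.05 or more in limma's test. Itga7 stands highest at 4.12 and Itga11 lowest at -3.68, and Itgb7 is the highest beta gene at 2.79.

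Among the laminin-binding alpha subunits, Itga7 was higher in heart, Itga3 lower and Itga6 without a call. Itga7, the alpha subunit of the muscle laminin receptor, was at 4.09 on array 1 and 4.14 on array 2, a mean of 4.12 ± 0.03 (SD, n = 2) and a 17.3-fold difference (limma, adjusted p 0.0012). Its 2 probes gave means of 3.90 and 4.34. Itga3, a laminin receptor subunit of epithelia and many cultured cells, was at -1.94 and -2.18, with a mean of -2.06 ± 0.17, which is 4.18-fold lower (adjusted p 0.00314). The arrays thus placed the 2 genes 6.03 and 6.32 log2 units apart; this difference between genes was not tested. Itga6, which pairs with either Itgb1 or Itgb4, had no call (0.58 and -0.21, adjusted p 0.575), and its 3 probes did not read alike. The lowest averaged -1.27 with almost the same value on both arrays, the highest averaged 0.97 through 2.07 on array 1 and -0.12 on array 2, and the third read 0.95 and 0.78. It was called lower on its most repeatable probe (-1.27, adjusted p 0.00145 in limma's test) and with unrepeatable probes left out (-0.20, adjusted p 0.0399), so that no direction is given for Itga6.

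The collagen-binding alpha genes were lower in heart or without a call. Itga11, a collagen receptor known from fibroblasts, was at -3.18 and -4.17 (mean -3.68 ± 0.70, 12.8-fold lower, limma adjusted p 0.0101), and only Lama1 had a wider gap between arrays among the 35 genes. Itga10, a receptor known from cartilage, was at -1.23 and -0.96 (-1.10 ± 0.19), and Itga2, the collagen receptor of platelets and epithelia, at -1.01 and -0.95 (-0.98 ± 0.04), both called lower. Itga1, which lies next to Itga2 in the rat genome, was near 0 at -0.13 and -0.07 and had no call (adjusted p 0.133). The neighbours Itga1 and Itga2 were 0.88 log2 units apart on each array. Fibroblast markers, all 12 of them called lower from -1.48 for Twist1 to -7.19 for Col1a2, moved the same way as Itga10 and Itga11; their part in these ratios was not tested.

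The alpha subunits that bind fibronectin and related ligands through the RGD motif were all 3 called lower, where 41.5% of all genes were. Itga8, known from mesenchyme and smooth muscle, read -3.51 and -3.50, a mean of -3.50 ± 0.01 and an 11.3-fold difference (limma, adjusted p 0.0012). Its 3 probes averaged from -4.51 to -2.24. From array 1 to array 2 they moved by 0.64, -0.41 and -0.21, which nearly cancel in the mean. The SD of 0.01 therefore does not show that single probes repeated so closely. With the median of its probes Itga8 was at -3.77 (limma, adjusted p 0.00264). Itgav, the partner of several beta subunits, was at -2.74 and -2.51 (-2.63 ± 0.16, 6.18-fold lower, adjusted p 0.0022). Itga5, the classical fibronectin receptor subunit, was less far from 0, at -0.58 and -0.63 (-0.61 ± 0.04, adjusted p 0.00537), with probe means from -0.73 to -0.36. Itga5 and Itga8 were 2.93 and 2.87 log2 units apart on the arrays, so these receptors for overlapping ligands did not stand at one level. The gene of their ligand fibronectin, Fn1, was lower by more than any of the subunits, at -8.31 and -8.40.

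Itga9 and Itga4 are the closest relatives among the alpha subunits, and they differed. Itga9, a receptor for tenascin-C and other ligands, was at 2.86 and 2.80 (2.83 ± 0.04, 7.11-fold higher, limma adjusted p 0.00122), with both probes positive at 2.16 and 3.50. Itga4, known from leukocytes and as a receptor for VCAM-1 and fibronectin, was at -0.08 and -0.21 and had no call (adjusted p 0.123). The distance between them was 2.94 on array 1 and 3.01 on array 2.

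Among beta subunits, the shared partner Itgb1 and the matrix receptor Itgb5 were lower in heart and the leukocyte subunit Itgb7 higher. Itgb1, the beta subunit of most matrix-binding integrins, was at -2.14 and -2.12, a mean of -2.13 ± 0.01 (4.37-fold lower, limma adjusted p 0.00125), and its 2 probes averaged -2.22 and -2.04. Itgb5, a vitronectin receptor subunit, was at -2.12 and -1.93 (-2.03 ± 0.13), close to Itgb1. Itgb3, the subunit of the platelet fibrinogen receptor and of the vitronectin receptor on several other cells, was at -0.74 and -1.08 (-0.91 ± 0.24, adjusted p 0.0187). Itgb4, the hemidesmosomal partner of Itga6, was on the other side at 0.89 and 0.96 (0.92 ± 0.05, adjusted p 0.00327). Itgb8, an Itgav partner that can activate TGF-beta, stood at 0.06 and -0.15 with no call. Itgb6, the epithelial partner of Itgav, was at -0.004 on array 1 and 0.55 on array 2 with no call (adjusted p 0.309), and the epithelial gene Cdh1 was also higher on array 2 (0.02 and 2.20); its part in the Itgb6 ratio was not tested.

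The alpha and beta genes of a receptor often stood on different sides of 0, as the plot of heterodimers shows. Itga7 exceeded Itgb1 by 6.23 on array 1 and 6.26 on array 2, although the proteins act as a pair. Of the partners of Itgb1, Itga3 stood at the same ratio within the spread, with a difference of 0.20 and -0.06. Itgav lay below each of its partners Itgb3, Itgb5, Itgb6 and Itgb8 on both arrays, by 0.60 on average for Itgb5 and by 2.90 for Itgb6. A ratio compares a gene between the channels, so these differences say nothing of which subunit was the more abundant transcript. They were not tested.

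**Figure D2:**
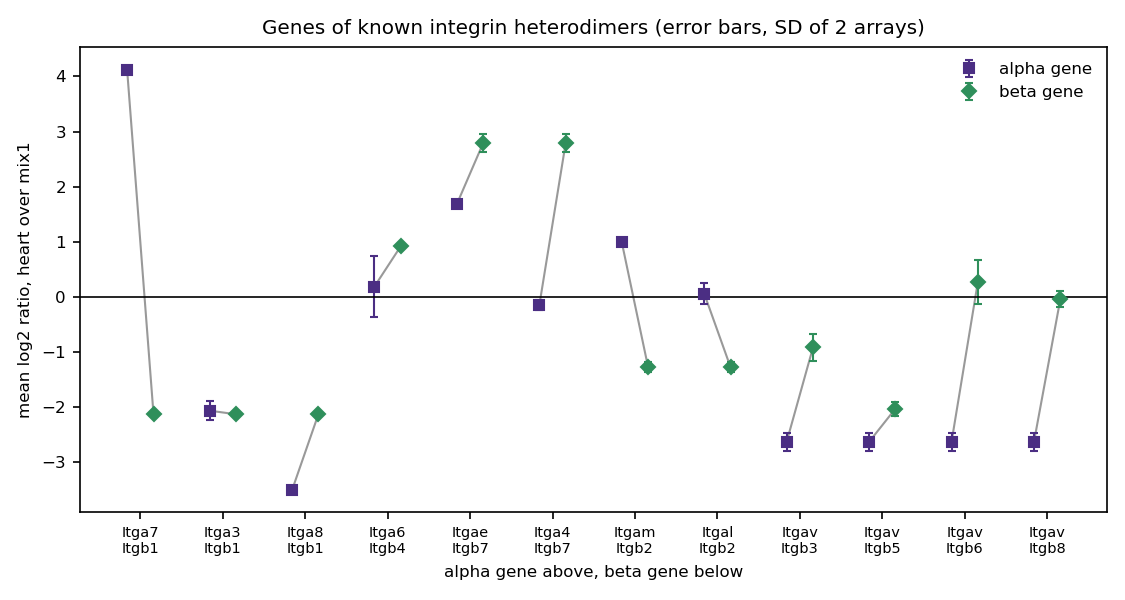
Mean log2 ratio of heart over mix1 (y axis) for the alpha gene (square) and beta gene (diamond) of 12 integrin heterodimers known from the literature (x axis); error bars are the SD of 2 arrays. Itga7 and Itgb1 lie farthest apart, at 4.12 and -2.13, while Itgae and Itgb7 are both above 0.

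Of 6 integrin genes listed for white blood cells (Itgad, Itgae, Itgal, Itgam, Itgb2 and Itgb7), 4 were called higher in heart, 1 lower and 1 had no call. Of all genes, 31.4% were called higher and 41.5% lower. Itga4, also known from leukocytes and another partner of Itgb7, was not in this list and had no call (-0.15, limma adjusted p 0.123). Itga4 minus Itgb7 was -2.76 on array 1 and -3.12 on array 2, a difference that was not tested. Itgb7, the beta subunit of lymphocyte homing and tissue-retention receptors, was at 2.68 and 2.91, a mean of 2.79 ± 0.16 (6.94-fold higher, limma adjusted p 0.00205). Itgae, its partner on lymphocytes held in tissue by E-cadherin, read 1.68 and 1.69 (1.69 ± 0.001, 3.22-fold higher, adjusted p 0.00141). Both genes were thus higher on both arrays, although Cdh1, the gene of the E-cadherin ligand, was near 0 on array 1. Itgb2, the beta subunit shared by the leukocyte adhesion receptors of neutrophils, macrophages and lymphocytes, was in contrast lower at -1.34 and -1.21 (-1.28 ± 0.09, 2.42-fold, adjusted p 0.00304). Itgb7 and Itgb2 were 4.02 and 4.12 log2 units apart.

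The alpha partners of Itgb2 did not share its direction. Itgam, the CD11b subunit of myeloid cells, was higher at 1.03 and 0.95 (0.99 ± 0.06, adjusted p 0.00318 in limma's test). Itgad, the gene beyond Itgax in the same cluster, was slightly higher at 0.21 and 0.22 (adjusted p 0.0252), and Itgal, the lymphocyte CD11a subunit, had no call at 0.19 and -0.07, with 2 probes on either side of 0. Itgam lay 2.37 and 2.17 above Itgb2 on the arrays. Leukocyte markers were similarly divided, where 31.4% of all genes were called higher and 41.5% lower. Of 9 lymphocyte markers, 7 were called higher, from Lck at 0.44 to Cd3g at 6.15, and 0 lower. Cd3e (2.44 on array 1 and 0.16 on array 2) and Cd79b (-0.14) had no call. Of 9 macrophage markers, 6 were called lower and 2 higher (Cd14 -3.81, Cd163 1.88). Of 8 neutrophil markers 4 were higher and 3 lower, from Mmp9 at -0.83 to S100a9 at 6.07. The part of these cells in the integrin ratios was not tested.

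Among laminin chains, Lama5, Lama2 and Lamb2 were at least 2-fold higher and the shared chain Lamc1 was lower in heart. Of 8 chains, 4 were called higher and 2 lower, where 31.4% and 41.5% of all genes were, and the median was 0.38, which turned to -0.20 when each gene was read from its most repeatable probe. Lama5, the alpha chain of vascular and epithelial basement membranes, had the highest mean at 1.86 ± 0.01 (1.86 and 1.87, 3.64-fold, limma adjusted p 0.00131), with its 3 probes from 1.35 to 2.26. Lama2, the alpha chain around muscle fibres, was at 1.55 and 1.58 (1.56 ± 0.03, 2.96-fold, adjusted p 0.00156), and its 4 probes averaged from 0.72 to 2.02, all positive. The array ranges of Lama5 and Lama2 did not overlap, but the ranges of their probe means did. Their order was not tested. Lamb2, a beta chain of muscle and of the neuromuscular junction, was at 0.97 and 1.03 (1.00 ± 0.04, limma adjusted p 0.00268).

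Lamc1, the gamma chain of nearly every laminin trimer, was at -0.67 and -0.77 (-0.72 ± 0.07, 1.64-fold lower, limma adjusted p 0.00575). Lama2, Lamb2 and Lamc1, which form a muscle laminin trimer, therefore did not stand together. Trimers with the beta chain of Lamb1 could not be assessed, since no probe bore that symbol. Lama2 exceeded Lamc1 by 2.21 and 2.35 and Lamb2 exceeded it by 1.64 and 1.80. As with the integrin pairs, these differences between genes were not tested. The chains of the epithelial anchoring laminin stood closer to 0. Lama3 was at -0.46 and -0.44 (adjusted p 0.00687) and Lamb3 at 0.30 and 0.43 (adjusted p 0.0247), a call that was lost on its most repeatable probe (0.060, adjusted p 0.221) and with the median of its 3 probes (0.23, adjusted p 0.0502).

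Lama1 and Lamc3 had no call. Lama1, the alpha chain of early embryonic and some epithelial basement membranes, was at 0.06 on array 1 and -1.33 on array 2, the only one of the 35 genes whose arrays differed by at least 2-fold. Lamc3 was at 0.16 and 0.62, and its 2 probes averaged -0.55 and 1.33; with arrays centred on their medians it was called higher (0.50, adjusted p 0.0162), and on its most repeatable probe lower (-0.55, adjusted p 0.00395).

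**Figure D3:**
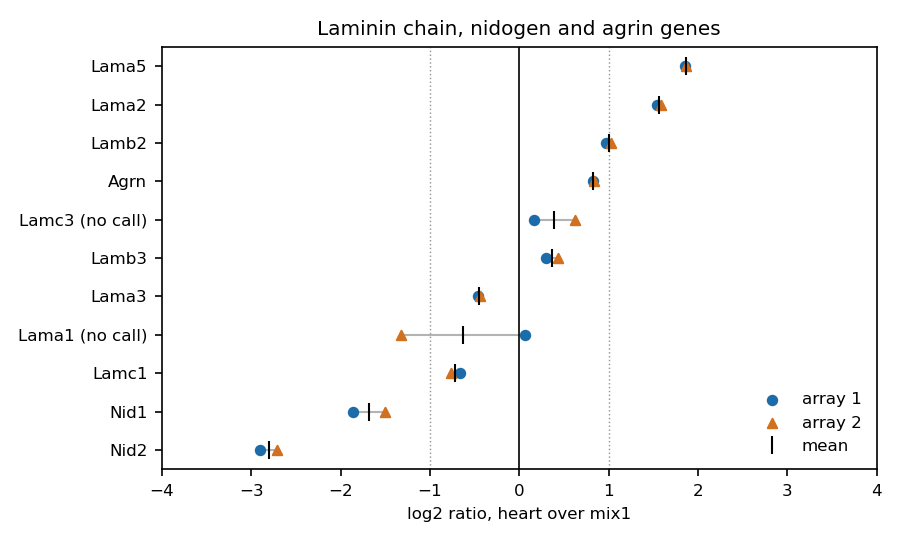
Log2 ratio of heart over mix1 (x axis) for the 8 laminin chain genes, both nidogens and agrin, ordered by mean; circles are array 1, triangles array 2, ticks the mean and dotted lines 2-fold. Lama5, Lama2 and Lamb2 lie to the right of 0 and Nid1 and Nid2 to the left, and Lama1 has the widest gap between arrays, from 0.06 to -1.33.

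Among the genes that link laminin to its surroundings, the nidogens were lower in heart. Nid2 and Nid1, the nidogens that bridge laminin and type IV collagen, were both lower: Nid2 at -2.90 and -2.71 (-2.81 ± 0.14, limma adjusted p 0.00178) and Nid1 at -1.86 and -1.51 (-1.68 ± 0.25, 3.21-fold, adjusted p 0.00701). The 3 probes of Nid1 averaged from -2.75 to -0.74. All were negative on array 1, but the probe with the mean of -0.74 read -1.57 there and 0.08 on array 2. Agrn, the heparan sulphate proteoglycan that joins laminin to dystroglycan and organises the neuromuscular junction, was called higher at 0.82 and 0.84 (0.83 ± 0.01, adjusted p 0.00285). Its 2 probes were opposed, however, at 1.96 and -0.30, each nearly the same on both arrays, so that the mean stands for neither.

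Probes of the same gene did not always read alike. The 35 genes had 57 probes, of which 24 were positive and 27 negative on both arrays and 6 changed sign. Of the 14 genes with several probes, 4 had probe means on both sides of 0 (Agrn, Itga6, Itgal and Lamc3), and 4 had probe means at least 2 log2 units apart (Itga6, Itga8, Agrn and Nid1). Between arrays, 3 of the 57 probes (5.26%) differed by at least 2-fold, where 3.02% of all 40012 probes did. Which probe reads its gene better cannot be told from the ratios.

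**Figure D4:**
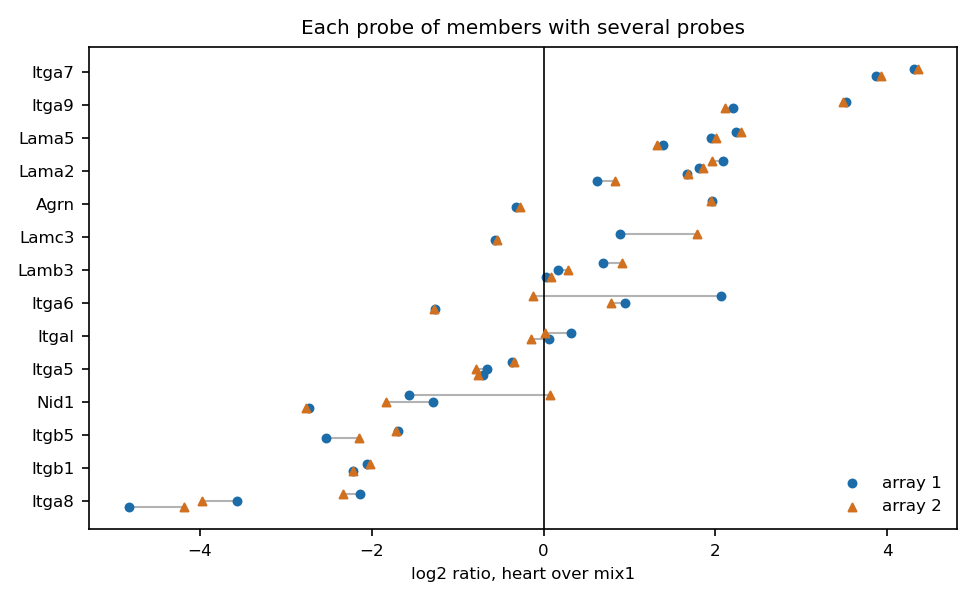
Log2 ratio of heart over mix1 (x axis) of every probe of the 14 genes with several probes (y axis, ordered by gene mean); circles are array 1 and triangles array 2, joined for the same probe. The probes of Itga7, Itga9, Lama5 and Lama2 all lie above 0 and those of Itga8 and Itgb1 below, whereas those of Agrn lie at 1.96 and -0.30.

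Among the genes of proteins that couple integrins to the cytoskeleton, more were lower in heart than higher. Of 40 measured adaptors, kinases and tetraspanins, 10 were called higher (25.0%) and 27 lower (67.5%), where all genes gave 31.4% and 41.5%; their median was -0.79, against -0.09 over all genes. The 12 fibroblast markers, all lower (median -4.05), moved with the lower side; their part in the adaptor ratios was not tested. Itgb1bp2, the muscle protein melusin that binds the beta 1 tail, was the highest at 4.19 and 4.42 (4.30 ± 0.17, 19.7-fold, limma adjusted p 0.00144), and stood 6.32 and 6.54 above Itgb1. Isoforms of the complex of integrin-linked kinase, PINCH and parvin lay on different sides: Parvb (2.11) and Lims2 (1.48) were higher, and their relatives Parva (-2.69) and Lims1 (-0.93) and the kinase Ilk (-1.49) lower. Of the talins, which switch integrins on from inside the cell, Tln1 was lower (-1.51 and -1.38) and Tln2 near 0 without a call (-0.08 and 0.01). Others past the test were Tns1 (1.38) and Itgb1bp1 (0.92) among the higher, and the tetraspanin gene Cd82 (-3.62), the actin crosslinker gene Flna (-3.50), the kinase gene Src (-2.49) and Tgfb1i1 (-2.18) among the lower.

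Integrin ligands other than laminin covered a wider range than the receptors. Of 30 measured, 11 were called higher (36.7%) and 17 lower (56.7%), with a median of -0.39, where all genes gave 31.4% and 41.5% and a median of -0.09. The lowest were Spp1 (-8.74), Fn1 (-8.36), Tnc (-7.34), Col1a2 (-7.19) and Col1a1 (-7.13, with probes from -8.89 to -6.02), which encode osteopontin, fibronectin, tenascin-C and type I collagen. Tnc and Itga9, a ligand and its receptor subunit, thus stood on opposite sides. The highest were Vtn, the gene of vitronectin, at 4.74 and 4.77 (4.76 ± 0.03), followed by Jam2 (3.76, with probes from 1.00 to 6.52), Icam2 (3.75), the fibrinogen gene Fgg (3.13) and Pecam1 (3.10). The other fibrinogen genes did not stand together, with Fgb called higher (2.10 and 2.90) and Fga called lower (-1.71 and -1.11). Ligands of leukocyte integrins were divided: Icam2, Vcam1 (1.06) and Madcam1 (1.72), the latter a ligand of Itgb7 integrins, were higher, and Icam1 was lower at -2.97 and -2.85. Pecam1 and Egfl7 of this list are also endothelial markers, all 12 of which were higher, and Col1a1, Col1a2, Col3a1 and Postn are also fibroblast markers, all 12 of which were lower; the part of these cells in the ligand ratios was not tested.

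Other basement membrane genes and the laminin receptors that are not integrins went both ways. Of 33 measured, 8 were called higher (24.2%) and 19 lower (57.6%), with a median of -0.69, against 31.4%, 41.5% and -0.09 over all genes. Of the non-integrin laminin receptors, Bcam, which binds the alpha 5 chain, was higher at 2.60 and 2.64. Rpsa, the gene of another laminin receptor, was lower at -0.92 and -0.89 (limma adjusted p 0.00263). Dag1, the dystroglycan core gene, was slightly lower at -0.24 and -0.22, a call lost when arrays were centred (-0.12, limma adjusted p 0.253). Of the genes of dystroglycan's partners, Sgca (6.36) and Dmd (2.95, with probes from 1.11 to 3.98) were higher and Utrn (-0.41) lower, and Sgcb (-0.13) and Sgcd (-0.005) had no call. The netrin gene Ntn4 (3.08) and the type IV collagen chain gene Col4a4 (2.53) were also higher, and Col4a1 (-1.15, with probes from -2.08 to -0.21) and Col4a2 (-2.66), the chains of most basement membranes, were lower like the nidogens. On its most repeatable probe Col4a1 was at -0.21. The lowest values were those of Sparc (-4.92), Lum (-4.24), Sdc1 (-4.11), Fbln2 (-3.87) and Fbln5 (-3.23). Of these, Lum is also a fibroblast marker.

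**Figure D5:**
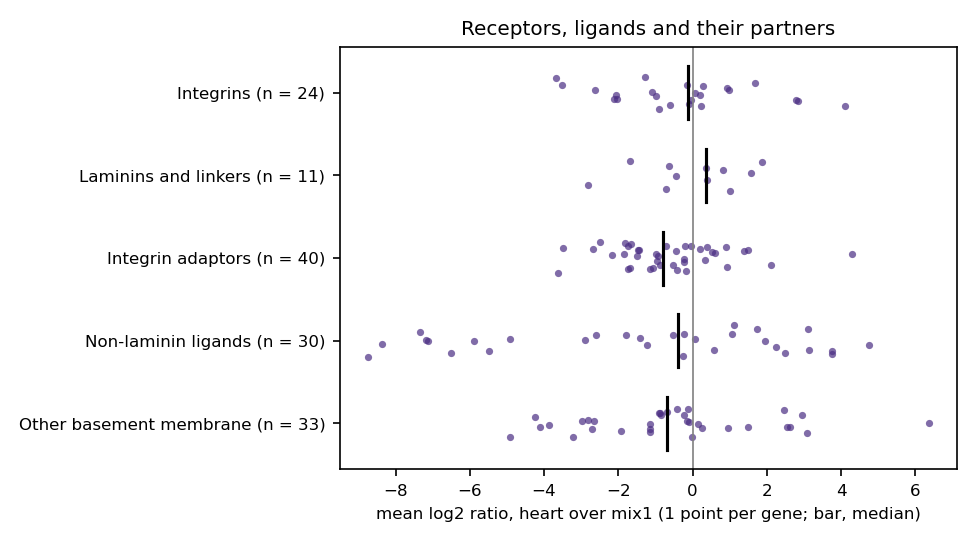
Mean log2 ratio of heart over mix1 (x axis) of each gene in 5 groups (y axis): integrins, laminins with their linkers, integrin adaptors, non-laminin ligands and other basement membrane genes. Each point is 1 gene and the bar is the group's median, which is -0.12 for integrins, 0.36 for laminins and linkers and -0.79 for adaptors.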

How the data were processed

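Gene expression was measured on 2-colour Agilent arrays, 1 per heart sample, with mix1 in the second channel of each. The deposited log2 ratios of the 2 channels were made by the authors with Agilent Feature Extraction, per the submitters' processing notes; its version and how background and dyes were treated is not given in the sources used here. Base 2 was assumed, since -11.10 read as log2 is a 2191-fold ratio, while as natural log it would be 65989-fold. No spot intensity was used, so how far each spot stood above background is unknown, and the number of arrays limits the precision.

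Of 40012 probes, 20417 had 1 gene symbol in the platform annotation and 19595 none. Probes of a gene were averaged, giving 15615 genes, 11849 of them with 1 probe. Genes were fitted with limma 3.58.1 in R 4.3.3 (lmFit with an intercept and eBayes, two-sided, 1 residual degree of freedom, 1.24 prior degrees of freedom), and p-values were adjusted over all genes with the Benjamini-Hochberg method at 0.05. The code was tested on simulated data. Every integrin and laminin gene may be named. From each of the other lists, the 5 highest and 5 lowest called genes were named together with preset partners. Added after their values were seen were Madcam1, Lims1, Egfl7, Rpsa, Utrn, Sgcb, Sgcd, Col3a1, Postn, Fga and Fgb. The single cell type markers given as examples were also added after their values were seen. Members and lists were chosen with earlier results of these data known. Alternatives were centring, other summaries of probes, a filter on unrepeatable probes, updated symbols, the log base, a fold condition and leaving out each array. Genome coordinates are given only for promoter windows, from RefSeq's GRCr8 annotation.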

Additional observations from a re-analysis of the deposited data

How the results depend on the processing

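Counts of called genes stayed within 1.5 times of those reported under centring, other summaries of probes, the probe filter and updated symbols. This held for the integrins and laminins and for the 3 related lists. Reading the values as natural logs rescales them all alike, so it cannot change a call and is no check of the counts. With a 2-fold condition added, the count of integrin and laminin genes higher in heart went from 12 to 7, that of adaptors higher from 10 to 4 and that of adaptors lower from 27 to 16. The size of a dye effect was not measured, for want of a dye swap, and its part in the calls was not tested. Centring moved the median of all genes from -0.09 to 0.02 and turned the sign of Itga1 (0.012), Itgb8 (0.068) and Tln2 (0.076), none of them called. The probe with the smallest difference between arrays turned Itga6 (-1.27), Itgal (-0.043), Lamc3 (-0.55) and the median of laminin chains (-0.20), and leaving out unrepeatable probes turned Itga6 to -0.20; the cause was not tested. A single array gives no test. Chosen after the data were seen, the count of integrin and laminin genes at least 2-fold higher was 7 on array 1 alone and 7 on array 2 alone, and the count at least 2-fold lower was 11 and 11, against 7 and 10 for the means. The test on 2 arrays cannot call a gene whose arrays differ in sign, so a shared sign among called genes is no further check. No paired analysis was possible because there is 1 group, whose ratio is tested against 0. No filter on dim spots could be run without intensities.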
